A study of Mus musculus with 24 samples.

Results

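The GIMAP genes encode GTPases of immunity-associated proteins, a family that shares one kind of GTP-binding domain and lies in a single cluster on mouse chromosome 6. The 8 genes described here are the rows of the count table whose Entrez identifiers carry the symbols Gimap1, Gimap3, Gimap4, Gimap5, Gimap6, Gimap7, Gimap8 and Gimap9, 8 of 27179 genes in the table. GIMAP proteins sit mostly on membranes of lysosomes, endoplasmic reticulum, mitochondria and lipid droplets, and they are best known for keeping lymphocytes alive. Loss of Gimap5 causes lymphopenia in the diabetes-prone BB rat, and mice without a working Gimap5 lose lymphocytes and also show a defect of haematopoietic stem cells.

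RNA was sequenced from sorted mouse bone marrow cells of 3 kinds, namely stem cells of the blood (HSC), their multipotent progeny (MPP) and a more restricted progenitor called HPC-1. Each came from 4 mice with Phf6 deleted and from 4 control mice, which gives 6 groups of 4 libraries. The mice were 4 litters of 1 deleted and 1 control animal, and every mouse gave all 3 populations. Phf6 lies on the X chromosome and encodes a chromatin protein, and it is often mutated in human T-cell leukaemia.

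The strain label Phf6lox/Y;Tie2-creTg/+ is the same for both groups, so all the mice are male carriers of a floxed Phf6 by that label, and whether the controls carried the Cre transgene is not stated. Tie2-cre is active in endothelial and haematopoietic cells, so the deletion is not limited to the sorted populations. The age of the mice is not given in the labels. Cells positive for CD3, B220, GR1 or TER119 were depleted first, and the sort used antibodies to cKIT, SCA1, CD150 and CD48. The library kit was SMART-seq for HSC and for MPP but TruSeq for HPC-1, so HPC-1 levels are given beside the others without a comparison.

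Total counts ran from 9658167 to 27786830 per library. Phf6 was lower in all deleted libraries than in any control library of the same population, with log2 fold changes of -1.95 ± 0.22 for HSC, -1.82 ± 0.18 for MPP and -2.08 ± 0.16 for HPC-1 (SE, edgeR adjusted p = 0.0211, 0.00432 and 3.29e-05). The HSC call was lost when litter was a block (edgeR adjusted p = 0.0606) and in 6 of 8 fits that left out 1 library, all but those without deleted library 1 or 4 (adjusted p up to 0.253, log2 fold changes of -2.17 to -1.78). The sort labels were checked against marker genes, which fit them in part. Slamf1, which encodes CD150, averaged 1.26 ± 1.56 CPM (counts put on one scale by TMM library sizes) in deleted MPP and 36.3 ± 19.2 CPM in deleted HSC, where the lowest library had 8.99 CPM, and 1.90 ± 0.620 CPM in control MPP and 67.4 ± 14.3 CPM in control HSC (SD, n = 4 each). Flt3, a receptor of early lymphoid progenitors, averaged 543 ± 23.0 CPM in deleted MPP and 39.3 ± 17.9 CPM in deleted HSC, and 446 ± 14.5 CPM in control MPP and 43.4 ± 14.4 CPM in control HSC. Some other markers followed the labels and some did not. Cd34, on the list of MPP and HPC-1 markers, averaged 1139 ± 267 CPM in deleted MPP and 355 ± 36.2 CPM in deleted HSC. In controls it averaged 1163 ± 112 CPM in MPP and 345 ± 21.1 CPM in HSC. Mllt3, an HSC marker, averaged 85.6 ± 20.9 CPM in control MPP and 138 ± 14.9 CPM in control HSC. In deleted mice it averaged 132 ± 14.7 CPM in MPP and 130 ± 29.0 CPM in HSC. Of 10 HSC markers 2 rose and 1 fell in deleted MPP over HSC, and 3 rose and 2 fell in controls, where Hlf, a transcription factor of stem cells, averaged 642 ± 132 CPM in MPP and 287 ± 59.9 CPM in HSC, and Ly6a, which encodes SCA1, 324 ± 54.6 CPM in MPP and 162 ± 20.5 CPM in HSC. Of 8 markers of MPP and HPC-1 2 rose and 0 fell in deleted mice (2 fell with the mouse as a block), and 2 rose and 3 fell in controls. The 3 that fell in controls are genes of dividing cells, among them Top2a at 220 ± 42.3 CPM in control MPP and 467 ± 29.3 CPM in control HSC. Beside these marker counts, 1.41% of all genes were called in either direction in deleted mice and 8.84% in controls. With the mouse as a block 177 of 13887 genes were called lower in deleted mice. In bulk RNA, fewer cells of a type and less RNA per cell cannot be told apart.

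The cluster spans 123.7 kb, from 48647186 to 48770851 on chromosome 6 of GRCm38. Its genes run in the order Gimap8, Gimap9, Gimap4, Gimap6, Gimap7, Gimap1, Gimap5 and Gimap3, with Gimap6 and Gimap3 on the minus strand and the other 6 on the plus strand. Only Gimap3 and Gimap5 shared transcript windows of 80 bases, the read length: 2.72% of the windows of Gimap3 and 1.61% of those of Gimap5 were found in the other gene. Gimap1 overlaps an antisense transcript, Gimap1os, over 36.0% of its exon bases, and in the SMART-seq libraries, which keep no strand, the reads of these partners cannot be told apart. A read-through gene, Gm28053, covers 3.5% of the exon bases of Gimap7, 6.4% of those of Gimap1 and 3.7% of those of Gimap5.

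RefSeq promoter windows (GRCm38.p6, 250 bases before to 50 after the start of transcription) were found for all 8 genes, 9 windows in total. The windows of Gimap6 and Gimap7 are shown because these genes rose in MPP over HSC, and that of Gimap1, the next most abundant member, for contrast. They are written 5′ to 3′ on the strand of the gene, and capitals mark a match to TGTGGT, the core letters bound by RUNX factors, here read on the opposite strand as ACCACA.
Gimap6 (chr6:48708195-48708494, minus strand): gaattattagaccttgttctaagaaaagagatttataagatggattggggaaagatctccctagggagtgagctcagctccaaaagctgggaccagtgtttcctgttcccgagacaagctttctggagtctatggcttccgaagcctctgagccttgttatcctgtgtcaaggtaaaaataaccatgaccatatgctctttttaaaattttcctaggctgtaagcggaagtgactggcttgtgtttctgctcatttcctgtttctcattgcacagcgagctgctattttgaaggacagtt
Gimap7 (chr6:48718371-48718670, plus strand): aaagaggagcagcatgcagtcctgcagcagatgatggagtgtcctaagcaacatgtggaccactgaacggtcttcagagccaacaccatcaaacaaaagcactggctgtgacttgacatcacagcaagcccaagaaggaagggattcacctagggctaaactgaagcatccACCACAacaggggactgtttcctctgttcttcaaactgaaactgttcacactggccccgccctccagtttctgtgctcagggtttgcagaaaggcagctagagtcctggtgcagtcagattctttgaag
Gimap1 (chr6:48738797-48739096, plus strand): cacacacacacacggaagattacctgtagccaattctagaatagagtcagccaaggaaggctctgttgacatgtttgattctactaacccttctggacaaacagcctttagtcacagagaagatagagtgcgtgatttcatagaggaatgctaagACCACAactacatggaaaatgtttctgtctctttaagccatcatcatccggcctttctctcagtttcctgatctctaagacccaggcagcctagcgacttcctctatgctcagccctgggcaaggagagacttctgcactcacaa
The Gimap7 match starts 79 bases before the start of transcription and the Gimap1 match 95 bases before it. Gimap4 has one at 145 bases, so 3 of 8 genes hold TGTGGT, against 16.8% of all 32851 windows of the same length. Neither the interferon-response letters GAAA, 2 free letters and GAAA nor the ETS letters CCGGAAGT, also searched on both strands, were in any of the 9 windows, against 3.44% and 3.89% of all windows. These are matches of letters, not bound sites. The windows of 7 genes hold 2 to 4 CpG pairs each and that of Gimap9 holds 8, beside a median of 7 over all windows.

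Gimap6, which takes part in autophagy through binding of a GABARAP-type protein, was the most abundant member per length in all 6 groups. On the scale of CPM per kilobase of the deposited gene length, its level averaged 760 ± 166 in deleted MPP, 496 ± 115 in control MPP, 355 ± 20.2 in deleted HSC and 282 ± 74.3 in control HSC (SD, n = 4 each). It made up 49.1% to 64.5% of the summed family level. In MPP it ranked 48th of 27179 genes in deleted mice and 66th in control mice.

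Gimap1, which mature T and B lymphocytes need, came next in each group. Its level per kilobase averaged 240 ± 35.0 in deleted MPP, 222 ± 14.4 in control MPP, 177 ± 20.3 in deleted HSC and 186 ± 17.5 in control HSC. The ranges of Gimap6 and Gimap1 did not overlap in any group. Gimap5, a lysosomal protein, and Gimap9 followed in HSC and MPP, with Gimap5 at 62.5 ± 4.86 and Gimap9 at 51.0 ± 8.86 CPM per kilobase in deleted MPP. The ranges of Gimap5 and Gimap9 overlapped in deleted HSC and in both MPP groups, and were apart in control HSC.

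The other 4 members were lower than these in HSC and MPP, and most neighbours in their order overlapped. Gimap7, a GTPase whose human form speeds GTP hydrolysis by GIMAP2, was the lowest member in HSC, at 3.38 ± 1.47 CPM per kilobase in deleted and 1.68 ± 0.564 in control mice. In MPP the lowest member was Gimap3, a close relative of Gimap5, at 6.32 ± 4.16 in deleted and 6.03 ± 2.38 in control mice. In HPC-1 the order was Gimap6, Gimap1, Gimap9, Gimap5, Gimap8, Gimap7, Gimap4 and Gimap3 in both genotypes. Gimap5 and Gimap8 overlapped in that population, at 9.66 ± 1.84 and 7.39 ± 1.41 CPM per kilobase in deleted mice. In control mice they averaged 10.85 ± 0.670 and 10.3 ± 3.32, also with overlap. There Gimap6 averaged 101 ± 17.0 CPM per kilobase in deleted and 104 ± 10.1 in control mice, and Gimap3 averaged 0.541 ± 0.418 and was counted 8 to 68 times per deleted library.

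**Figure D1:**
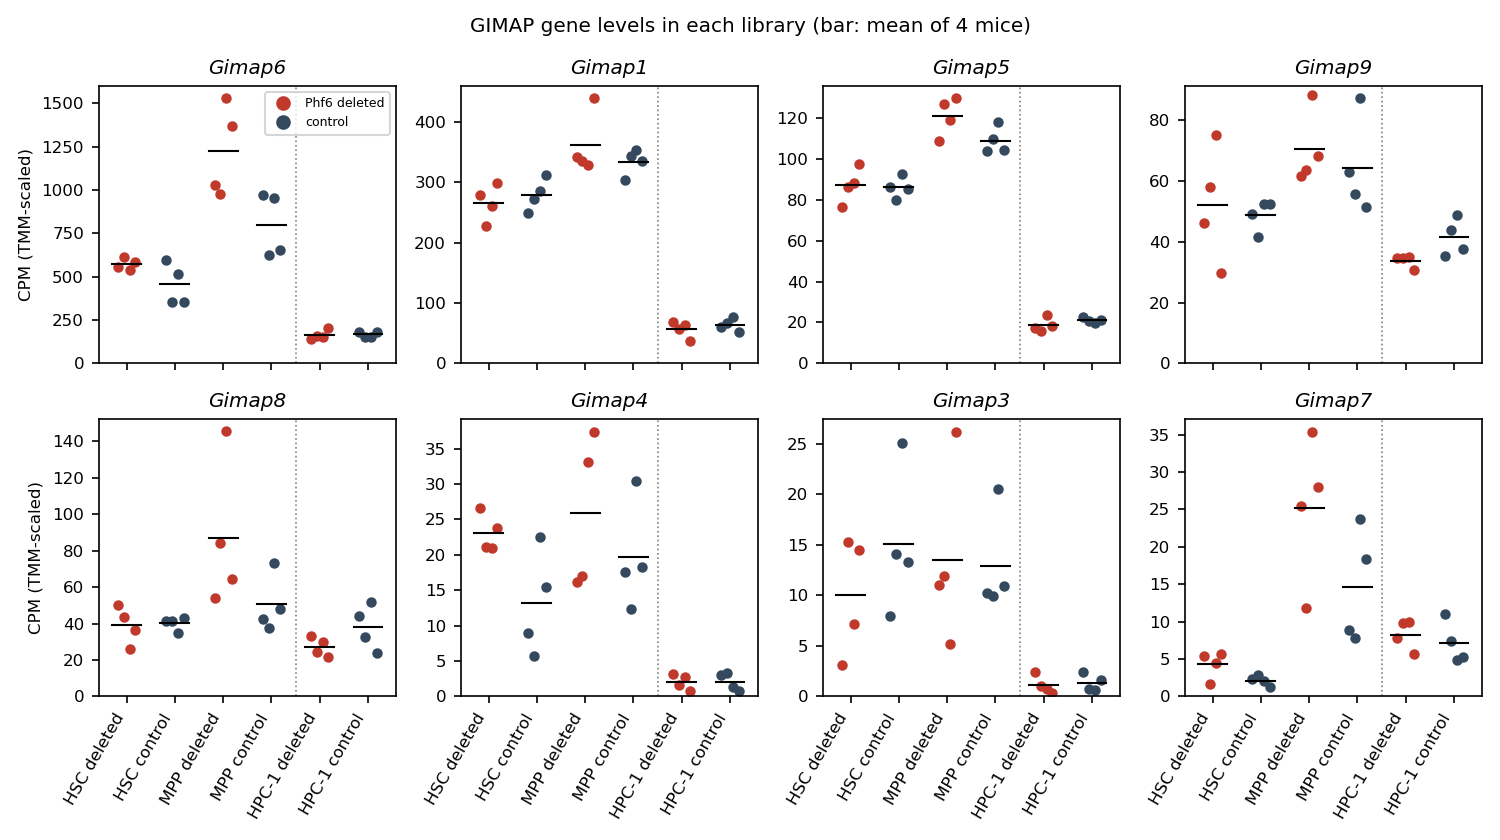
Level of each GIMAP gene in CPM on TMM-scaled library sizes (vertical axis, linear, from 0, a different scale in each panel) in each of the 24 libraries, by population and genotype. Points are mice and bars are means of 4, and the dotted line sets off HPC-1, made with another kit. Gimap5, Gimap6 and Gimap7 stand higher in MPP than in HSC, with no overlap in either genotype.

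The comparison of MPP with HSC asked which members differ between these populations of the same mice. In deleted mice Gimap6 and Gimap7 rose, 2 of 8 members, where 0.641% of 13887 genes were called higher and 1.41% in either direction. All 8 members lay above 0, beside 51.4% of all genes. Gimap7 was at 25.5, 11.9, 35.4 and 28.0 CPM in deleted MPP, against 5.44, 1.63, 4.42 and 5.68 CPM in deleted HSC. Mouse 2 was lowest in both populations, and the groups did not overlap. The log2 fold change was 2.53 ± 0.48 (edgeR adjusted p = 0.0302).

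Gimap6 was at 1027, 974, 1531 and 1367 CPM in deleted MPP, against 553, 613, 540 and 582 CPM in deleted HSC. All 4 mice were higher in MPP, by a log2 fold change of 1.08 ± 0.20 (edgeR adjusted p = 0.0296). Neither call survived the loss of any 1 mouse: adjusted p ran from 0.0504 to 0.193 for Gimap6 and from 0.0808 to 0.183 for Gimap7, while the log2 fold changes stayed between 0.94 and 1.22 and between 2.36 and 2.67. The number of genes called over the whole table was 14 to 153 in these fits, against 196 with all 4 mice. With the mouse as a block and all 4 mice, Gimap6 and Gimap7 passed (edgeR adjusted p = 0.0455 and 0.0163). That is 2 of 8 members, beside 0.835% of all genes called higher.

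Gimap8 in deleted mice was at 53.8, 84.5, 146 and 64.7 CPM in MPP, against 50.4, 43.8, 26.3 and 36.7 CPM in HSC. The groups were apart, and mouse 3 was both the highest in MPP and the lowest in HSC. Its log2 fold change of 1.13 ± 0.34 did not pass in edgeR (adjusted p = 0.133) but did in DESeq2 (0.0280), and it was 0.63 without mouse 3. Gimap1 (0.42 ± 0.19) and Gimap5 (0.45 ± 0.18) did not overlap between populations either, and did not pass (edgeR adjusted p = 0.331 and 0.278). In all 5 of 8 members were higher in MPP with no overlap, beside 5.96% of all genes.

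In control mice Gimap7 and Gimap6 rose as well, and no member fell. That is 2 of 8 members higher, where 4.06% of the 13636 genes tested were called higher and 8.84% were called in either direction. In all, 7 of 8 members lay above 0, beside 49.2% of all genes, with a median log2 fold change of 0.36 beside -0.01 over all genes.

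Gimap7 was at 8.82, 7.87, 23.7 and 18.4 CPM in control MPP of mice 1 to 4, against 2.33, 2.93, 2.06 and 1.21 CPM in control HSC of the same mice. Every MPP library was above every HSC library, and the HSC values rest on 12 to 34 counts each. The log2 fold change was 2.76 ± 0.42 (SE, edgeR adjusted p = 0.00125), and it passed when any 1 mouse was left out. Gimap6 was at 969, 625, 954 and 653 CPM in control MPP, against 596, 356, 513 and 355 CPM in control HSC. The groups did not overlap, and mice 1 and 3 were high in both populations. The Gimap6 log2 fold change was 0.81 ± 0.20 (edgeR adjusted p = 0.0234). It did not pass without control mouse 2, 3 or 4 (adjusted p up to 0.0874), at log2 fold changes of 0.78 to 0.87. With the mouse as a block and all 4 mice, Gimap6 was at 0.82 ± 0.07 and Gimap7 at 2.65 ± 0.45 (edgeR adjusted p = 0.000179 and 0.00435).

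Gimap5 was at 104, 110, 118 and 104 CPM in control MPP, against 86.6, 80.2, 92.7 and 85.6 CPM in control HSC, also apart. In all 3 of 8 members were higher in MPP with no overlap, beside 7.68% of all genes. Its log2 fold change of 0.33 ± 0.11 did not pass (edgeR adjusted p = 0.0966), but passed with the mouse as a block (0.0423) and in DESeq2 (0.0391). With the block, 3 of 8 members rose, where 7.39% of all genes were called higher, 8.07% lower and 15.5% in either direction. Gimap1 (0.25 ± 0.11) and Gimap9 (0.39 ± 0.17) had unadjusted p of 0.0452 and 0.0429 in edgeR and did not pass. Gimap4, which promotes death of T cells, was at 0.57 ± 0.39, Gimap8, a member with several GTPase domains, at 0.32 ± 0.20, and Gimap3 at -0.24 ± 0.35.

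**Figure D2:**
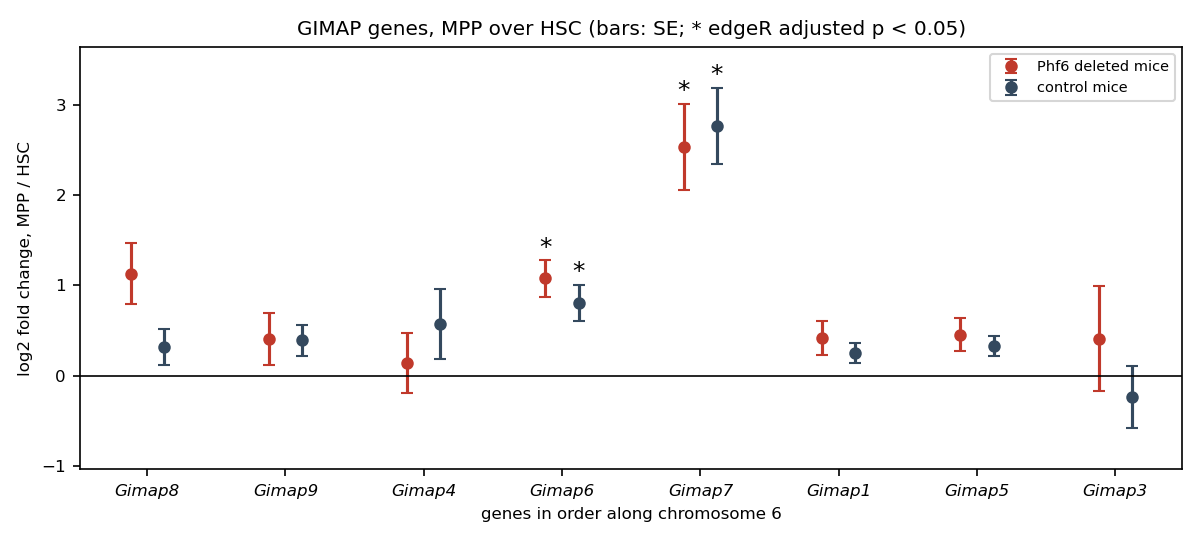
Log2 fold change of MPP over HSC (vertical axis) for each GIMAP gene in its order along the chromosome, in deleted and control mice. Points are edgeR estimates, bars are SE and stars mark adjusted p under 0.05. Gimap6 and Gimap7 carry stars in both genotypes.

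Genes next to the cluster were read for comparison. Of the 5 nearest named genes on each side, 5 of 10 had enough counts to be tested, and 0 of 5 passed in any comparison. In controls Repin1, 48.1 kb from the cluster, was at 0.33 ± 0.14 and Zfp775, 25.6 kb away, at 0.45 ± 0.23 in MPP over HSC (edgeR adjusted p = 0.166 and 0.286). In deleted mice Repin1 was at 0.50 ± 0.23 and Tmem176b at 0.32 ± 0.18 (edgeR adjusted p = 0.3425 and 0.453). As with most GIMAP members, 4 of these 5 genes lay above 0 in MPP over HSC in each genotype.

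Partners and pathways tied to GIMAP proteins were read from lists of genes. The BCL2 family sets the threshold of mitochondrial cell death, and several GIMAP proteins have been reported to bind its members. In deleted mice 1 of 12 tested members fell in MPP and 0 rose, beside 1.41% of all genes called in either direction. The 1 was Bcl2, which blocks cell death, at 81.2 ± 22.2 CPM in MPP and 181 ± 28.8 CPM in HSC (log2 fold change -1.18 ± 0.24, edgeR adjusted p = 0.0383). It did not pass without deleted mouse 1, 2 or 4 (adjusted p up to 0.263). In controls 2 of 11 fell and 0 rose, beside 8.84% of all genes called in either direction. Bcl2 averaged 78.7 ± 9.91 CPM in MPP and 160 ± 21.0 CPM in HSC (log2 fold change -1.03 ± 0.14, edgeR adjusted p = 0.000498). Bcl2l1, which encodes BCL-XL, was at -0.90 ± 0.16 (adjusted p = 0.00284). With the mouse as a block 1 of 11 rose and 3 of 11 fell, beside 7.39% of all genes called higher and 8.07% lower. Bax, an effector of cell death, then fell as well (-0.34 ± 0.10, edgeR adjusted p = 0.0487), and Mcl1, a survival factor, rose (0.30 ± 0.08, edgeR adjusted p = 0.0345).

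Of 18 autophagy and lysosome genes, 0 passed in deleted mice with or without the mouse as a block, and 0 passed in controls without it. In controls Ulk1, a kinase that starts autophagy, was at 0.43 ± 0.13 and Map1lc3a at -0.61 ± 0.18 (edgeR adjusted p = 0.0564 and 0.0611). With the mouse as a block 3 of 18 rose, beside 7.39% of all genes called higher and 15.5% in either direction: Ulk1 (adjusted p = 0.0216), Sqstm1, a cargo receptor of autophagy (0.40 ± 0.08, adjusted p = 0.00840), and Map1lc3b (0.26 ± 0.07, adjusted p = 0.0433).

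Of lymphoid priming genes, 3 of 10 tested rose in MPP of deleted mice, Flt3 (3.77 ± 0.35), Satb1, a chromatin organiser (3.46 ± 0.47), and Ikzf1, a lymphoid transcription factor (1.36 ± 0.24), and 0 fell (edgeR adjusted p = 0.000655, 0.00731 and 0.0251). Satb1 did not pass without deleted mouse 2 (adjusted p = 0.0812), and Ikzf1 did not pass without deleted mouse 1, 2 or 4 (adjusted p up to 0.176). With the mouse as a block 4 of 10 rose, beside 0.835% of all genes called higher, and without the block that share was 0.641%. In controls 5 of 11 rose and 0 fell, beside 4.06% of all genes called higher, with a median log2 fold change of 1.52. Flt3 was at 3.36 ± 0.21, Satb1 at 3.05 ± 0.26, and Dntt, which encodes the polymerase that diversifies antigen receptors, at 5.62 ± 0.88 (edgeR adjusted p = 1.43e-06, 1.88e-05 and 0.00284). Dntt had 27 counts in all in control HSC.

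Since mature lymphocytes carry GIMAP RNA, markers of T, NK and B cells were read beside these results. The summed level of the 17 T and NK markers ran from 168 to 245 CPM in deleted MPP, against 157 to 373 CPM in deleted HSC, and from 263 to 377 CPM in control MPP, against 232 to 274 CPM in control HSC. Most of it came from Nkg7, Lat and Lck, at 89.3 ± 29.8, 57.0 ± 7.30 and 55.3 ± 15.2 CPM in deleted MPP. Of the 17, 5 had 0 counts in deleted MPP and 7 in deleted HSC, and 6 had 0 in control MPP and 10 in control HSC. Cd3e, Cd8a, Cd8b1 and Ncr1, defining markers of T and NK cells, had 0 counts in all 16 HSC and MPP libraries. Other defining markers were present at low counts: Cd3d had 5 in deleted MPP, 28 in deleted HSC, 13 in control MPP and 34 in control HSC, Cd3g had 11 in deleted MPP and 0 in the other HSC and MPP groups, and Cd4 had 345 in deleted MPP, 71 in deleted HSC, 92 in control MPP and 37 in control HSC.

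In deleted mice 1 of 6 tested T and NK markers rose and 0 fell, beside 0.641% of all genes called higher. The 1 was Cd6, with 186 counts in deleted MPP and 0 in deleted HSC (edgeR adjusted p = 0.0301). With the mouse as a block 0 of 6 passed, and Cd6 passed only without mouse 3 when 1 mouse was left out (adjusted p up to 0.183). In controls 2 of 6 rose, beside 4.06% of all genes called higher. These were Lck, a kinase of T-cell receptor signalling (1.13 ± 0.21, edgeR adjusted p = 0.00450), and Cd6, with 165 counts in control MPP and 0 in control HSC.

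The sum of the 11 B-cell markers was higher in MPP, as Gimap6 and Gimap7 were. It ran from 136 to 373 CPM in deleted MPP, against 45.8 to 64.9 CPM in deleted HSC, and from 84.0 to 155 CPM in control MPP, against 38.7 to 73.5 CPM in control HSC, so the groups did not overlap in either genotype. Ighm, the heavy chain gene of IgM, made up most of the difference, at 155 ± 102 CPM in deleted MPP and 15.2 ± 2.20 CPM in deleted HSC, and at 71.0 ± 27.5 CPM in control MPP and 11.8 ± 13.0 CPM in control HSC. It rose in deleted mice, the only 1 of 3 tested markers to pass (3.32 ± 0.40, edgeR adjusted p = 0.00367), beside 0.641% of all genes called higher. In controls 0 of 4 passed, with Ighm at 2.56 ± 0.73 (adjusted p = 0.0792), and Ighm rose with the mouse as a block (2.99 ± 0.31, adjusted p = 0.000408) and without control mouse 1 or 3. Pax5 and Ebf1, transcription factors that define B cells, had 0 counts in all 16 HSC and MPP libraries. The part of T, NK and B cells in the GIMAP values was not tested.

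Neutrophil and monocyte markers summed to 1261 to 12070 CPM in deleted MPP, against 1220 to 9517 CPM in deleted HSC, and to 178 to 2522 CPM in control MPP, against 543 to 6673 CPM in control HSC. Of these 12 markers 0 passed in edgeR in either genotype, and 7 of 12 fell in control MPP with the mouse as a block, beside 8.07% of all genes. Of 13 endothelial markers, 11 were tested in deleted mice, of which 1 fell, Vwf at -4.31 ± 0.30, and 10 in controls, of which 3 fell and 1 rose, with Vwf at -3.91 ± 0.37 (edgeR adjusted p = 0.000163 and 9.10e-05). Over all genes, 1.41% were called in either direction in deleted mice and 8.84% in controls. Cdh5, another of the 13 endothelial markers, had 0 counts in HSC and MPP of both genotypes.

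The main comparison of the study set Phf6-deleted mice against controls within each population. No GIMAP gene passed in any of the 3, and few genes passed anywhere: 0.00730% of 13693 genes in HSC, 0.0290% of 13806 in MPP and 0.0647% of 13907 in HPC-1. By unadjusted edgeR p under 0.05, 0, 2 and 2 of 8 members passed in HSC, MPP and HPC-1, beside 3.86%, 8.09% and 4.99% of all genes. DESeq2 also called 0 members in each. A p that misses the threshold does not show that the levels were equal.

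In HSC 5 of 8 members lay above 0, as did 50.8% of all genes, with a median of 0.06 beside 0.01 over all genes. Gimap4 was at 26.6, 21.1, 21.0 and 23.9 CPM in deleted HSC of litters 1 to 4, against 8.90, 5.69, 22.5 and 15.5 CPM in control HSC. The deleted libraries lay close together, and control 3 fell inside their range. The log2 fold change was 0.82 ± 0.38 (unadjusted p = 0.0559, edgeR adjusted p = 0.998). Gimap7 was at 1.00 ± 0.63, Gimap6 at 0.33 ± 0.18 and Gimap3 at -0.59 ± 0.50, and the other 4 were within 0.10 of 0.

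In MPP all 8 members lay above 0, with a median of 0.27 beside 0.02 over all genes, of which 51.9% lay above 0. Gimap6 had 1027, 974, 1531 and 1367 CPM in deleted MPP, against 969, 625, 954 and 653 CPM in control MPP. The groups did not overlap, though the lowest deleted library was within 10 CPM of the highest control. Of all genes tested, 2.96% were likewise higher with no overlap. The log2 fold change was 0.61 ± 0.22 (unadjusted p = 0.0197, edgeR adjusted p = 0.597) and ran from 0.48 to 0.71 when 1 library was left out.

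Gimap8 was at 53.8, 84.5, 146 and 64.7 CPM in deleted MPP, against 42.6, 37.8, 73.5 and 48.1 CPM in control MPP. The deleted mouse was higher in 4 of 4 litters, and both litter 3 libraries were the highest of their group. Its log2 fold change was 0.78 ± 0.33 (unadjusted p = 0.0344, edgeR adjusted p = 0.609), and 0.42 without deleted library 3. That library also held 9.339% of its counts in its 10 top genes, against 2.948% to 5.083% in the others, and had 14710 genes detected. Its TMM factor was 0.8011, against 0.9911 to 1.057 in the other HSC and MPP libraries, which raises its CPM for every gene. It was the highest deleted MPP library for Gimap6, Gimap7 and Gimap9 too, and the lowest for Gimap1 and Gimap3. Gimap7 was at 0.77 ± 0.42 and was higher in 4 of 4 litters, with overlap. Gimap4 (0.39), Gimap5 (0.15), Gimap9 (0.12), Gimap1 (0.11) and Gimap3 (0.06) were closer to 0 on the log2 scale. Gimap3 lay below 0 with the litter as a block (-0.05), and Gimap3, Gimap9 and Gimap1 did so in some fits that left out 1 library.

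In HPC-1 the direction was the other way for 7 of 8 members, with 1 of 8 above 0, beside 49.3% of all genes, and a median of -0.18. Gimap9 was at 34.6, 34.8, 35.0 and 30.7 CPM in deleted HPC-1, against 35.3, 44.0, 48.9 and 37.5 CPM in control HPC-1. The groups did not overlap, with deleted 3 and control 1 nearly touching. Of all genes tested, 2.08% were likewise lower with no overlap. The log2 fold change was -0.29 ± 0.13 (unadjusted p = 0.0404, edgeR adjusted p = 0.947). Gimap8 was at 33.4, 24.2, 29.9 and 21.9 CPM in deleted HPC-1, against 44.3, 32.6, 51.8 and 24.1 CPM in control HPC-1, lower in 4 of 4 litters with overlap (-0.48 ± 0.22, unadjusted p = 0.0460, edgeR adjusted p = 0.986). Gimap7 alone lay above 0 (0.21 ± 0.31), and Gimap4, at -0.02, lay above it with the litter as a block.

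Summed over the 8 members per kilobase, the family stood at 188 ± 5.07 in deleted and 205 ± 7.85 in control HPC-1, with ranges of 182 to 193 and 197 to 213. The sums were 1177 ± 207 in deleted and 863 ± 134 in control MPP, and 646 ± 15.0 in deleted and 575 ± 69.3 in control HSC (SD, n = 4 each). There the ranges overlapped, at 985.5 to 1381 and 740.8 to 1016 in MPP, and 633.5 to 665.9 and 496.1 to 636.8 in HSC. Gimap6 was the largest share of each sum.

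**Figure D3:**
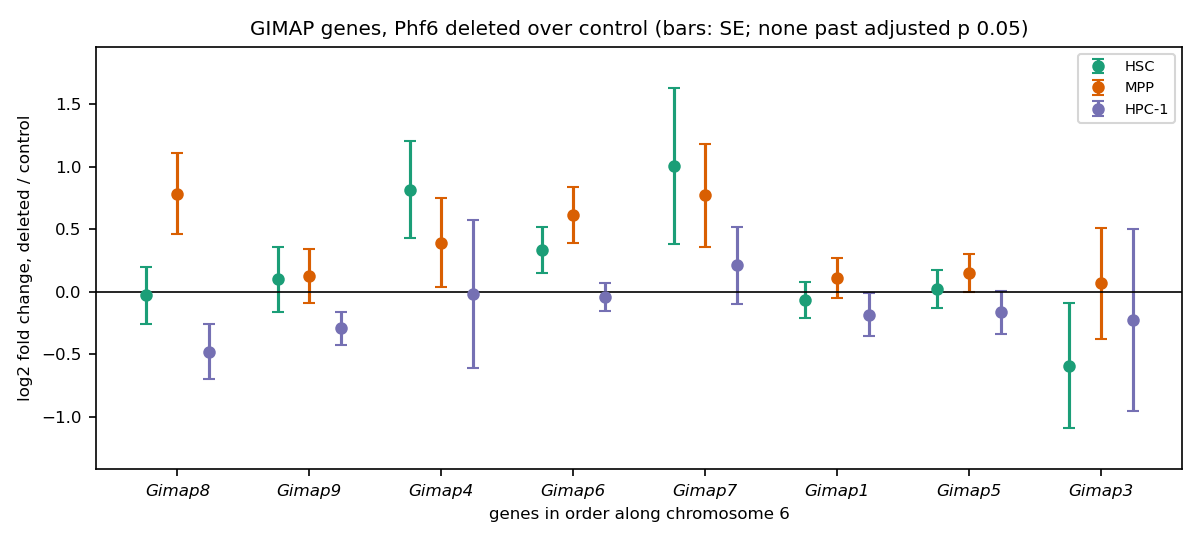
Log2 fold change of Phf6-deleted over control (vertical axis) for each GIMAP gene in chromosome order, for HSC, MPP and HPC-1. Points are edgeR estimates and bars are SE. All 8 MPP points lie above 0 and 7 of 8 HPC-1 points below it, and none passed adjusted p 0.05.

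Populations were also tested for a difference in their response to deletion. HPC-1 libraries were made with another kit, so where HPC-1 is set against HSC and MPP, population and kit cannot be told apart. No gene passed in either test, of 14561 genes for MPP minus HSC and 15316 for HPC-1 minus the mean of HSC and MPP, with 417 and 446 genes at an unadjusted edgeR p under 0.05 and 2 and 11 called by DESeq2. Gimap8 differed by 0.82 ± 0.41 between MPP and HSC (unadjusted p = 0.0595), and 0 of 8 members had an unadjusted p under 0.05 there, beside 2.86% of all genes. In HPC-1, against the mean of HSC and MPP, the effect differed by -0.86 ± 0.35 for Gimap8 and by -0.51 ± 0.23 for Gimap6 (unadjusted p = 0.0205 and 0.0348, edgeR adjusted p = 1.00 for both), 2 of 8 members beside 2.91% of all genes.

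Markers of other cells were read beside the deletion values, and none passed without the litter as a block. All 12 neutrophil and monocyte markers lay above 0 in each population, with medians of 0.58 for HSC, 1.19 for MPP and 0.59 for HPC-1. Ccr2, a monocyte receptor, rose in HPC-1 with the litter as a block (1.30 ± 0.16, edgeR adjusted p = 0.00147), 1 of 12 beside 0.216% of all genes. The sum of these markers ran from 1261 to 12070 CPM in deleted MPP, against 178 to 2522 CPM in control MPP. The B-cell markers summed to 136 to 373 CPM in deleted MPP, against 84.0 to 155 CPM in control MPP, and to 528 to 2380 CPM in deleted HPC-1, against 553 to 1222 CPM in control HPC-1. Ighm was at 1.12 ± 0.41 in MPP and 0.85 ± 0.53 in HPC-1 (edgeR adjusted p = 0.597 and 0.999). The sum of the T and NK markers ran the other way in MPP, from 168 to 245 CPM in deleted and from 263 to 377 CPM in control libraries. The markers themselves were mixed, with 3 of 7 tested above 0 and a median of -0.03. Nkg7 averaged 89.3 ± 29.8 CPM in deleted and 158 ± 35.4 CPM in control MPP, and Lat 57.0 ± 7.30 and 81.3 ± 11.7 CPM. Lck averaged 55.3 ± 15.2 CPM in deleted and 51.1 ± 13.7 CPM in control MPP. Of 10 endothelial markers tested in MPP 2 lay above 0. The sum of all 13 listed ran from 344 to 639 CPM in deleted MPP, against 555 to 676 CPM in control MPP. Its largest parts were Esam, Eng and Tie1, at means of 154, 118 and 116 CPM in deleted MPP. In control MPP they averaged 161, 136 and 172.5 CPM. Tie1 is also on the list of HSC markers, and the endothelial marker Cdh5 had 0 counts in both MPP groups. The part of these cells in the GIMAP values was not tested. No BCL2 family, autophagy or lymphoid priming gene passed for deletion. In MPP Bcl2l11, which encodes the death activator BIM, was at 0.82 ± 0.31 and Hspa8, a chaperone, at -0.87 ± 0.25 (edgeR adjusted p = 0.603 and 0.551).

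The members varied largely apart from one another. After each library was centred on the mean of its population, Pearson's r between members over 24 libraries ran from -0.23, for Gimap1 with Gimap6, to 0.51, for Gimap4 with Gimap7, with a median of 0.28 over 28 pairs. Libraries of one mouse or litter are not independent, and low counts add noise to Gimap3, Gimap4 and Gimap7, so these are descriptions. By its largest deviation in any library Gimap5 varied least and Gimap3 most.

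The 5 genes outside the family most like its mean profile, among 10251 genes with at least 5 CPM on average in each population, were Tgtp1 (r = 0.754), Cdk7 (0.733), Zfp566 (0.722), Prkcq (0.694) and Sfxn4 (0.678) over the 24 libraries. Tgtp1 encodes an interferon-induced GTPase and Prkcq a protein kinase C of T cells. Centring on the 6 group means instead kept 3 of the 5 among the top 5, with Sfxn4 at rank 10 and Prkcq at rank 15. The members, themselves part of the profile, followed it unevenly, from r = 0.338 for Gimap9 and 0.486 for Gimap6 to 0.633 for Gimap7 and 0.824 for Gimap4.

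**Figure D4:**
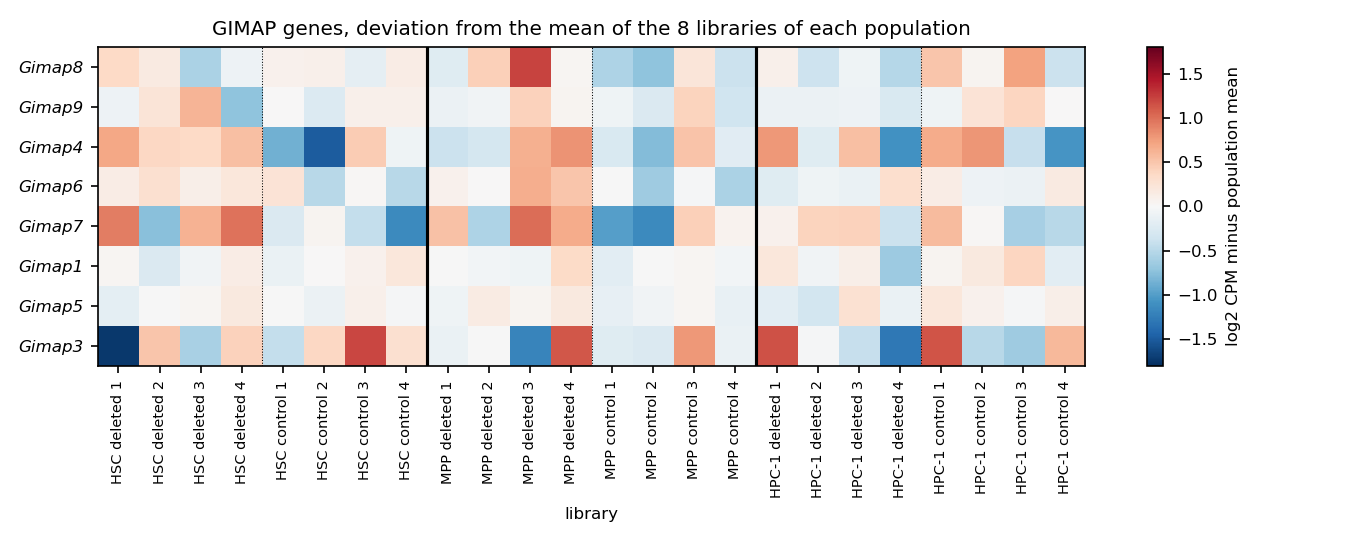
Log2 CPM of each GIMAP gene (rows, in order along the chromosome) in each library (columns) minus the mean of the 8 libraries of its population, red for higher and blue for lower. Gimap5 is nearly even across libraries, while Gimap3 and Gimap4 reach the largest deviations.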

How the data were processed

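The authors deposited raw counts, 1 whole number for each gene and library, and the submitters' processing notes name featureCounts, bcl2fastq and mm10. The aligner, the annotation used and any strand setting: not given in the sources used here. The deposited series table matched the 24 sample files, and symbols and coordinates come from a RefSeq table of GRCm38.p6, which named 25275 genes. Within groups, the 36 pairs of libraries differed by more than counting noise (chi-square per degree of freedom 16.1 to 234). Total counts per library of 9658167 to 27786830 limit precision for members with few counts.

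Each comparison was fitted over all genes in R 4.3.3 with edgeR 4.0.16 (scaling by TMM, default filter of 10 counts and 15 in total, robust quasi-likelihood test, Benjamini-Hochberg adjustment over all genes tested, threshold 0.05). The SE is the log2 fold change over the square root of F, in size. CPM were scaled over HSC and MPP together and over HPC-1 apart. Alternatives were DESeq2 1.42.0, RLE size factors, no filter, a replicate block and leaving out each library or mouse. Some of the fits were also run on simulated counts without pairing by mouse or litter, and the outcome is not given here.

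The replicate number pairs samples by design, as litter or as mouse. Across genes, the correlation of deviations from the group means between same-numbered samples was 0.01 to 0.06 for HSC littermates, 0 to 0.15 for MPP littermates and 0.08 to 0.38 for HPC-1 littermates. Between MPP and HSC it was 0.02 to 0.38 in deleted and 0.15 to 0.32 in control mice.

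Named genes are the family, Phf6, up to 3 members per list past the threshold with the lowest adjusted p (if no member passed, the 2 of lowest unadjusted p at most) and the 5 genes most like the family profile. Genes that passed only with the block and single T, NK and B markers beyond this rule were named after their values were seen. The members and lists were chosen with earlier results of these data known. Protein sequences were not used here.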

Additional observations from a re-analysis of the deposited data

Results flagged for a closer look

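In 3 of 48 groups of 4 libraries 1 value lay far from the other 3, and chance flags about 1 in 20. Gimap1 was at 440.0 CPM in deleted MPP library 4, against 328.6 to 342.8 CPM in the other deleted MPP libraries. Gimap3 was at 20.57 CPM in control MPP library 3, against 9.937 to 10.98 CPM in the others. Gimap9 was at 30.72 CPM in deleted HPC-1 library 4, against 34.59 to 35.03 CPM in the others.

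Gimap8 had log2 fold changes of opposite sign for deletion in populations made with different kits, 0.784 in MPP, where the deleted mouse was higher in 4 of 4 litters, and -0.48 in HPC-1, where it was higher in 0 of 4. The direct test nearest to this, of HPC-1 against the mean of HSC and MPP, gave an edgeR adjusted p of 1.00, and MPP against HPC-1 alone was not tested.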

How the results depend on the processing

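With 1 library or mouse left out, the counts of genes called ran from 0 to 1 (HSC deletion), 2 to 22 (MPP deletion, 22 without deleted library 3), 1 to 11 (HPC-1 deletion), 14 to 153 (MPP over HSC in deleted mice) and 533 to 880 (in controls), against 1, 4, 9, 196 and 1205 with all. DESeq2 called 14, 96 and 68 genes for deletion in HSC, MPP and HPC-1, 843 for MPP over HSC in deleted mice, and 2 and 11 in the tests of a differing effect. Without a filter HPC-1 gave 20. With the replicate block, which pairs litters or mice, the counts were 0, 6 and 60 for deletion and 293 (deleted mice) and 2109 (controls) for MPP over HSC. Among members the block added Gimap5 in controls and turned Gimap3 in MPP (-0.048) and Gimap4 in HPC-1 (0.005). The cause was not tested.

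Of 384 member values with 1 library or mouse left out, 343 kept direction and side of the threshold, 11 lost a call and 30 changed sign. Those that changed sign were never called. For deletion in HSC they ran from -0.131 to 0.004 (Gimap1), -0.042 to 0.089 (Gimap5), -0.163 to 0.126 (Gimap8) and -0.12 to 0.285 (Gimap9). For deletion in MPP they ran from -0.003 to 0.154 (Gimap1), -0.472 to 0.386 (Gimap3) and -0.003 to 0.307 (Gimap9), and in HPC-1 from -0.893 to 0.215 (Gimap3), -0.313 to 0.269 (Gimap4) and -0.169 to 0.018 (Gimap6). Gimap4 ran from -0.073 to 0.39 for MPP over HSC in deleted mice. Differences of effect ran from -0.625 to 0.123 (Gimap7) and -0.156 to 0.18 (Gimap9) for MPP minus HSC, and from -0.307 to 0.028 (Gimap1) and -0.822 to 0.702 (Gimap3) for HPC-1.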
